A study of Nasonia vitripennis with 2 samples.

Results

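Half-methylated CpGs were selected on their own read counts, as CpG sites read 30 to 170 times at which 40% to 60% of the reads carried an unconverted C. This rule kept 9119 of the 14024488 CpG sites of the *Nasonia vitripennis* reference scaffolds. The counts came from whole-genome bisulfite sequencing of 1 pool of 50 adult females of the strain AsymCX, collected at 24 h as whole bodies. Reads of a GAIIx lane and of a HiSeq2000 lane of this pool, 2 in all, were summed in 1 table and are not replicates. Whole bodies mix all tissues, so a level is an average over cell types and over 50 wasps, and no second pool or condition was analysed here.

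In insects, DNA methyltransferases place methyl groups mainly on CpG sites in the exons of broadly expressed genes, while most other CpGs stay free of them. Bisulfite treatment turns a non-methylated C into a base that is read as T and leaves a methylated C as it is. Each read therefore reports 1 strand of 1 molecule as methylated or not, and an intermediate level stands for a mixture of both kinds of read. The table sums both strands of a CpG and the alleles of all wasps, so molecules methylated on a single strand, differences between cells, differences between alleles and a base change from C to T cannot be told apart in it. The paper states that this highly inbred strain, also used for the genome project, avoids complications of base variation in methylation calls. Which of these mixtures is present was not tested.

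The table held 226856322 reads over CpG sites, with a median of 11 reads per site and of 19 reads over the 7818889 covered CpGs (10 reads or more). A covered CpG with more than 10% methylated reads is called an mCpG, and 116929 covered CpGs, or 1.50%, were mCpGs. Of the 2024750 CpGs with 30 to 170 reads, 56457, or 2.79%, were mCpGs and 0.450% were half-methylated. Every half-methylated CpG is an mCpG by the rule. They made up 16.2% (95% Wilson interval 15.9% to 16.5%) of the mCpGs at that depth and 7.80% of all mCpGs. Intervals here cover counting error only, since PCR copies of a molecule cannot be recognised and 1 read is counted at each CpG it spans.

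The levels of the half-methylated CpGs are a description, because the rule chose them. They held 480615 reads, of which 242863 or 50.5% were methylated, at a median depth of 46 reads (quartiles 37 and 62). Their levels had quartiles of 45.5% and 55.8% around a median of 50.9%. Exactly 50% was found at 488 sites, a lower level at 3970 and a higher level at 4661. A site at 50% has an interval of 33.2% to 66.8% with 30 reads and of 42.6% to 57.4% with 170 reads. The interval of the site's own level lay inside 25% to 75% for 9023 of the 9119 sites (98.9%) and inside 30% to 70% for 6210 (68.1%). The limits of the rule on depth and level by themselves keep these intervals away from 0% and 100%. Counting error does not fix where in the band a single site lies.

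The band had no edge in the counts. Just inside its lower limit (40% to below 42%) there were 833 sites and just below it (38% to below 40%) there were 637. Just inside the upper limit (above 58%) there were 1139 sites and just above it (to 62%) there were 1035. At 40% to 60%, 340 sites had exactly 29 reads and 400 had exactly 30, while 1 site had 170 reads. Over all mCpGs of 30 to 170 reads, in classes of 5 points, the number of sites fell from 2924 at 10% to 15% to 1883 at 30% to 35% and then rose to 5816 at 90% to 95%. Within the band the classes held 1905, 2384, 2045 and 2616 sites. The class at 45% to 50% stood above both its neighbours, and the 488 sites at exactly 50% are counted in it.

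**Figure D1:**
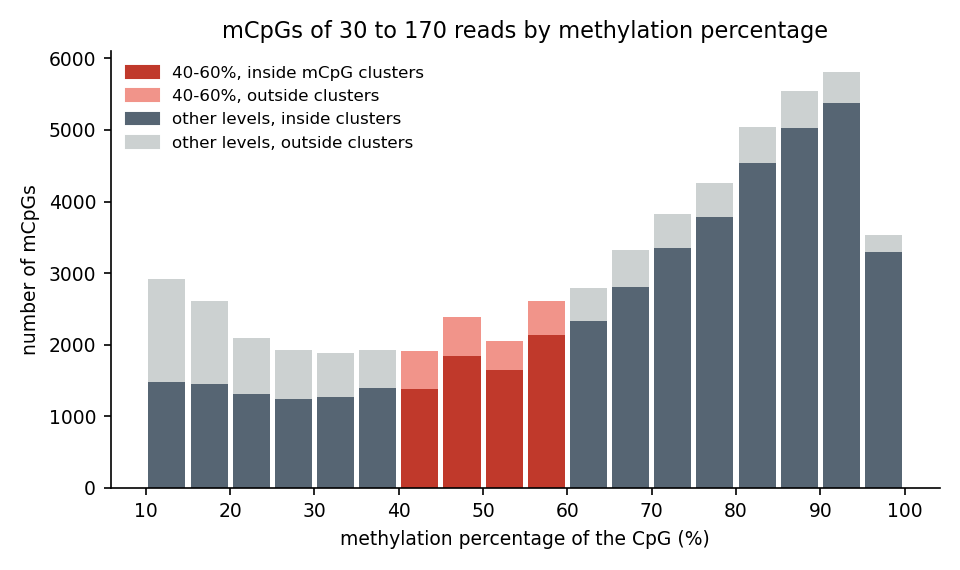
Number of mCpGs with 30 to 170 reads (vertical axis) in classes of 5 points of methylation percentage (horizontal axis), each class holding its upper limit, with bars split into sites inside (dark) and outside (light) mCpG clusters and the classes above 40% to 60% in red. The counts fall to 1883 at 30% to 35% and rise to 5816 at 90% to 95%, and the 169 half-methylated CpGs at exactly 40% stand in the bar left of the red ones.

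The half-methylated share of mCpGs was larger among deeper sites. It was 15.1% at 30 to 39 reads (3020 sites), 15.8% at 40 to 59 reads (3512), 17.9% at 60 to 99 reads (2197) and 21% (19.2% to 22.9%) at 100 to 170 reads (390). A selection on depth also favours sites that stand above their surroundings. Half-methylated CpGs had a median of 1.50 times the median depth of the covered CpGs within 500 bp, against 1.52 times for mCpGs below 40%, 1.45 times for those above 60% and below 90%, and 1.38 times for those at 90% or above. At more than 2 times that depth were 27.1% of the half-methylated CpGs and 19.9% of the CpGs at 90% or above. The part of this depth difference in the results that follow was not tested. The 4 depth classes sort sites by their own reads and not by depth relative to their surroundings, so they cannot decide this. Over these classes the share of half-methylated CpGs inside mCpG clusters lay between 76.7% and 78.9%. The level of their neighbours at 76 to 500 bp was 34.5% at 30 to 39 reads and 39% at 100 to 170 reads.

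Half-methylated CpGs were found on 337 scaffolds, with up to 576 on one. On the 129 scaffolds with 50 or more mCpGs of 30 to 170 reads they made up a median of 15.9% of those mCpGs (quartiles 14.0% and 17.3%), from 3.77% (2 of 53, SCAFFOLD682) to 26.9%. The 3 highest shares were 14 of 52 on SCAFFOLD308, 43 of 167 (25.7%) on SCAFFOLD61 and 23 of 90 (25.6%) on SCAFFOLD575. On the 20 scaffolds with the most half-methylated CpGs, which held 4885 of them (144 to 576 each), the share stayed between 13.8% and 19.0%. No scaffold of this size had half-methylated CpGs as the majority of its mCpGs. None lay on the mitochondrial scaffolds, where 9 CpGs had 30 reads or more.

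In what follows, half-methylated CpGs are set beside 3 other classes of mCpGs with the same 30 to 170 reads. These are 13192 sites above 10% and below 40%, 24417 sites above 60% and below 90%, and 9729 sites at 90% or above. Since 1 pool under 1 condition was sequenced, differences between classes are described without a test, and their spread is given over the 20 scaffolds with the most half-methylated CpGs.

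Half-methylated CpGs lay close to other mCpGs. The nearest other mCpG was a median of 36 bp away (quartiles 16 and 69 bp), and 77.4% (76.5% to 78.2%) had one within 75 bp. Among the 1968293 CpGs of the same depth at 10% or below, 1.16% had an mCpG within 75 bp. This distance followed the level of the site, and the median was 45 bp for mCpGs below 40%, 31 bp for those above 60% and below 90%, and 24 bp for those at 90% or above. Within 75 bp the matching shares were 67.4%, 81.1% and 86.7%. Half-methylated CpGs thus stood between the mCpGs below 40% and those above 60%.

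The covered CpGs on either side gave the same order. Both flanking covered CpGs were mCpGs for 6052 of 9111 half-methylated CpGs (66.4%), 1 of them for 25.3% and neither for 752 (8.25%). Both were mCpGs for 45.1% of the sites below 40% and for 85.3% of those at 90% or above. The half-methylated share with mCpGs on both sides ran, over the 20 scaffolds, from 57.8% to 72.1%, above the class below 40% and under the class at 90% or above in 20 of 20.

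Most half-methylated CpGs were parts of mCpG clusters. A cluster was a series of mCpGs no more than 500 bp apart that stopped where 3 covered CpGs in a row were non-methylated. Over 80% of its covered CpGs had to be mCpGs and its average level had to pass 40%, which 5451 series met. Inside them lay 7131 half-methylated CpGs (78.2%, 77.3% to 79.0%), against 60.7% of the mCpGs below 40%, 88.0% of those above 60% and below 90%, and 92.7% of those at 90% or above. Part of this order is built in, because the site's own reads enter the average of its cluster. Their share inside clusters was 73.1% to 83.4% on the 20 scaffolds, between the class below 40% and the class at 90% or above in 20 of 20.

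Many clusters held a half-methylated CpG, as they did mCpGs of the other classes. It was present in 3469 of the 5451 clusters (63.6%), once in 1559, 2 times in 953, 3 times in 525 and 4 or more times in 432, with 12 at most. Sites of the same depth below 40% were present in 66.8% of the clusters. Those above 60% and below 90% were in 89.7%, and those at 90% or above in 65.7%. In the 3883 clusters with 5 or more mCpGs of 30 to 170 reads, the half-methylated ones made up a median of 14.3% of those mCpGs (quartiles 5.80% and 22.2%). They were the majority in 60 of these clusters (1.55%). Over all mCpGs of this depth their share was 16.2%. How rare a majority would be at that share was not computed, so this count is a description.

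The clusters around half-methylated CpGs were more methylated than the sites themselves. With the site left out, the rest of its cluster had a median level of 62.1% (quartiles 54.9% and 69.4%). The rest stood above 60% for 57.8% of the half-methylated CpGs inside clusters and at 40% to 60% for 41.6%. The same median was 61.7% around mCpGs below 40%, 64.2% around those above 60% and below 90%, and 66.4% around those at 90% or above. These medians are close by construction in part, because a cluster has to average more than 40% with over 80% mCpGs whatever the level of 1 of its sites.

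Half-methylated CpGs lay nearer to the ends of clusters than the more methylated sites did. The median distance to the nearer end was 240 bp (quartiles 72 and 489 bp), against 163 bp below 40%, 314 bp above 60% and below 90%, and 327 bp at 90% or above, in clusters of nearly the same median length (1362 bp for half-methylated CpGs and 1394 bp for sites at 90% or above). In the outer 10% of the cluster's length at either end lay 33.3% of the half-methylated CpGs inside clusters and 22.0% of the CpGs at 90% or above. The first or last mCpG of a cluster was half-methylated in 970 cases, which is 10.6% of the half-methylated CpGs, against 13.1% of the sites below 40% and 6.48% of those at 90% or above. By scaffold the median distance ran from 142 to 344 bp, shorter than at 90% or above in 20 of 20 and longer than below 40% in 19 of 20.

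**Figure D2:**
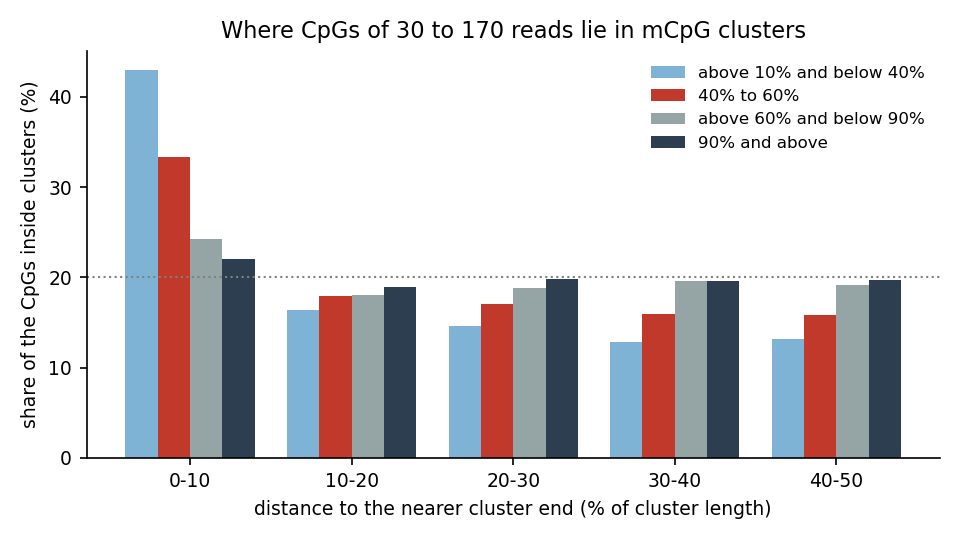
Share of the CpGs inside clusters (vertical axis, %) by distance to the nearer cluster end in percent of cluster length (horizontal axis), for the 4 level classes of mCpGs with 30 to 170 reads. The dotted line marks the 20% of an even spread, and 33.3% of the half-methylated CpGs fall in the outermost class against 22.0% of the CpGs at 90% or above.

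Outside clusters lay 1988 half-methylated CpGs (21.8%). Of these, 339 (17.1%) were alone in their chain, 516 (26%) were in chains of 2 or 3 mCpGs, 435 (21.9%) in chains of 4 to 9 and 698 (35.1%) in chains of 10 or more that missed the criteria for a cluster. The neighbourhood of these sites was less methylated. Covered CpGs at 76 to 500 bp from them were methylated at 16.4%, against 41.3% around half-methylated CpGs inside clusters.

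Half-methylated CpGs without any mCpG near them were rare. No other mCpG lay within 500 bp of 111 of them (1.22%) and none within 1000 bp of 45 (0.493%, 0.369% to 0.660%). For mCpGs below 40% the latter share was 2.70% (356 sites), and at 90% or above it was 0.0206% (2 sites). The 45 sites were on 32 scaffolds, and their neighbours within 1000 bp held 343 methylated reads of 82370, or 0.416%. A low level of these neighbours follows from the choice of the sites, since any mCpG among them would have excluded the site. The depth of the 45 sites was a median of 1.67 times that of their neighbours, above the 1.50 times of all half-methylated CpGs.

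The deepest of these 45 sites give single counts. These counts are a description, because the sites were chosen for having no mCpG among their neighbours within 1000 bp. On SCAFFOLD14, position 1417082 had 54 methylated reads of 127 (42.5%), while the 54 other covered CpGs within 1000 bp had 14 of 2155 reads. On SCAFFOLD37, position 368866 had 75 of 127 (59.1%) among 44 covered CpGs with 3 of 1807. On SCAFFOLD8, position 2345578 had 59 of 104 (56.7%) among 42 covered CpGs with 18 of 2015. At each of them the methylated reads at 1 CpG outnumbered those at all neighbours together. Each was also read more deeply than its neighbours, whose median depths were 35, 32 and 38 reads in the same order.

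The neighbours of half-methylated CpGs were half-methylated on average only at short range. Neighbours up to 75 bp away can share reads with the site, as reads were trimmed to 75 bp, whereas neighbours at 76 to 500 bp share none with it. Other half-methylated CpGs stay among the neighbours, and 8.13% of the neighbours at 76 to 500 bp were at 40% to 60%. The pooled level of covered neighbours was 47.9% at 2 bp (166 neighbours), 47.2% at 11 to 25 bp and 44.7% at 51 to 75 bp. It then went down to 43.3% at 76 to 100 bp, 37.3% at 160 to 180 bp, 35.6% at 250 to 300 bp and 28.6% at 450 to 500 bp, where ranges beyond 100 bp leave out their lower limit. The share of neighbours that were mCpGs fell in parallel, from 97.0% at 2 bp through 66.8% at 76 to 100 bp to 40% at 450 to 500 bp.

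Over all distances from 76 to 500 bp the neighbours of half-methylated CpGs were methylated at 34.7% (139457 neighbours). The same level was 26.6% around mCpGs below 40%, 42.8% around those above 60% and below 90%, and 47.6% around those at 90% or above. On the 20 scaffolds it ran from 28.4% to 40.3% around half-methylated CpGs and lay between the class below 40% and the class at 90% or above in 20 of 20. The fall with distance was mostly a fall in the share of mCpGs. The mCpGs among the neighbours were at 65.1% at 76 to 100 bp and at 63.2% at 450 to 500 bp.

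Beyond the length of a read, the curves of the classes differed most at 160 to 180 bp. From 76 to 100 bp to 160 to 180 bp, the level of neighbours rose from 49.9% to 66.8% around CpGs at 90% or above and moved from 50.3% to 51% around those above 60% and below 90%. Around half-methylated CpGs it dropped by 5.98 points, from 43.3% to 37.3%, and around mCpGs below 40% from 31.7% to 26.8%. On the 20 scaffolds the difference was negative in 17 of 20 for half-methylated CpGs (-14.9 to 2.40 points) and positive in 20 of 20 for CpGs at 90% or above (2.83 to 30.2 points). Outside clusters the direction was another one: around the 1988 half-methylated CpGs there, neighbours were at 15.3% at 76 to 100 bp and at 19.8% at 160 to 180 bp, a rise of 4.51 points. Around the 707 CpGs at 90% or above outside clusters the rise was 28.5 points, from 16.0% to 44.4%.

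The position of half-methylated CpGs nearer to cluster ends moves with this contrast, and the curves were therefore read again for sites more than 200 bp from both ends of their cluster. Among the 3885 half-methylated CpGs of this kind, neighbours were at 65.4% at 76 to 100 bp and at 59.5% at 160 to 180 bp, a drop by 5.95 points. Among the 6057 CpGs at 90% or above they were at 62.4% and 77.5%, a rise of 15.1 points. At 76 to 100 bp the half-methylated CpGs in the interior thus had neighbours at least as methylated as those of near fully methylated ones. This held for the other interior classes too, at 66.4% below 40% and 65.6% above 60% and below 90%. From there to 160 to 180 bp, the level around sites below 40% dropped by 9.18 points. Around sites above 60% and below 90% it rose by 1.50 points. At 2 to 25 bp the neighbours of half-methylated CpGs were at 56.7%, against 83.7% at 90% or above.

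**Figure D3:**
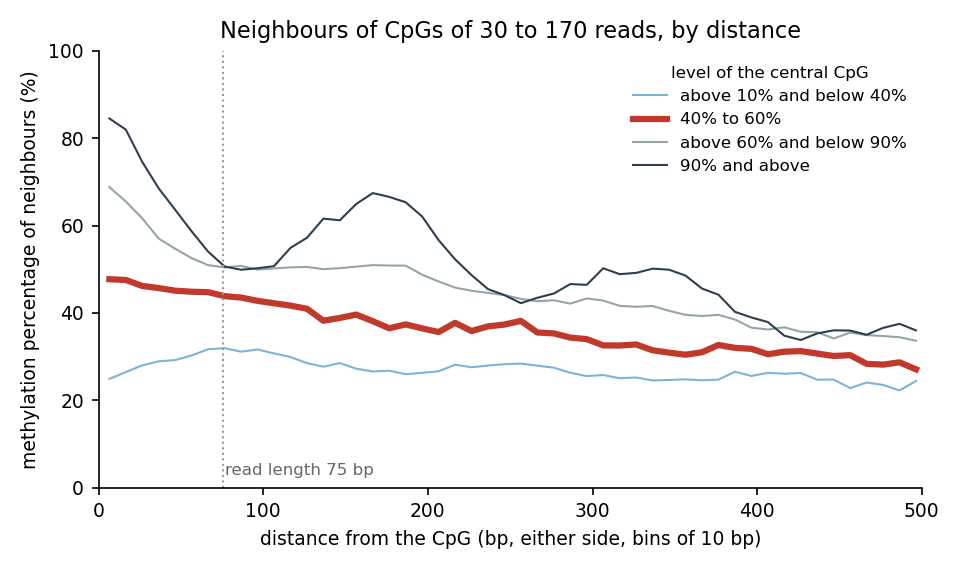
Pooled methylation percentage of covered neighbours (vertical axis, %) against distance from the central CpG (horizontal axis, bp, bins of 10 bp on either side), for the 4 level classes of mCpGs with 30 to 170 reads. Left of the dotted line at 75 bp a neighbour can share reads with the central CpG. The half-methylated curve falls from 47.9% at 2 bp to 28.6% at 450 to 500 bp, without the rise to 66.8% at 160 to 180 bp seen around CpGs at 90% or above.

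The average near 50% hid neighbours of very different levels. Of the neighbours at 3 to 10 bp, 23.4% were themselves at 40% to 60%, 14.6% were at 10% or below and 5.42% were at 90% or above. At 76 to 100 bp only 10.4% were at 40% to 60%, while 33.2% were at 10% or below and 15.3% at 90% or above. At 450 to 500 bp 6.29% were at 40% to 60% and 60% at 10% or below. Beyond the length of a read, a neighbour of a half-methylated CpG was more often non-methylated or above 60% than half-methylated. The same was found around other mCpGs. At 76 to 100 bp, neighbours at 40% to 60% made up 7.72% around mCpGs below 40%. They made up 11.2% around those above 60% and below 90%, and 13.3% around those at 90% or above.

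**Figure D4:**
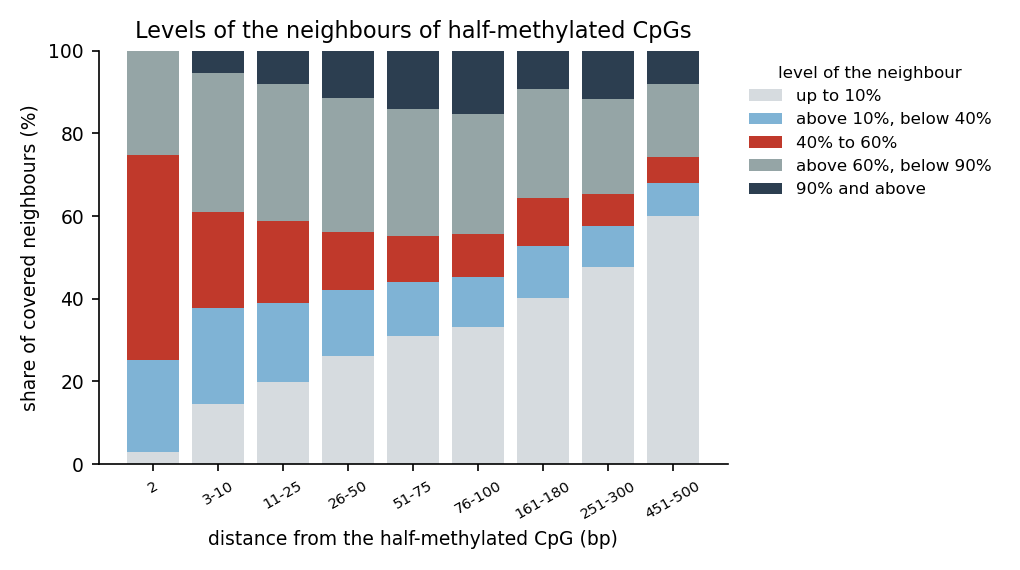
Share of the covered neighbours of half-methylated CpGs (vertical axis, %) in 5 classes of methylation percentage, by distance (horizontal axis, bp, selected ranges). The neighbours at 40% to 60% (red) shrink from 49.4% at 2 bp to 10.4% at 76 to 100 bp, and those at 10% or below grow from 3.01% to 33.2%.

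Both sides of a half-methylated CpG were often unlike, as they were around other mCpGs. Among the 7240 with covered neighbours at 76 to 250 bp on each side, the levels of the sides differed by a median of 25.4 points. One side was at 20% or below and the other at 60% or above for 19.2% (18.3% to 20.1%), both sides were at 60% or above for 22.1%, both at 10% or below for 7.46% and both at 40% to 60% for 213 sites (2.94%). A step between a methylated and a non-methylated side was also found around 18.7% of the mCpGs below 40%, 16.5% of those above 60% and below 90%, and 15.6% of those at 90% or above. In these classes the sides differed by a median of 23.2, 23.4 and 21.7 points in the same order. Both sides were at 40% to 60% for 2.08%, 2.37% and 2.24% of them. The classes differed far more in how often both sides were at 60% or above, which was 12.7% below 40% and 43.1% at 90% or above.

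The nearest covered CpGs could be read on both sides within 75 bp for 3824 half-methylated CpGs. They were both at 40% to 60% for 3.27%, both at 10% or below for 329 (8.60%), both at 90% or above for 48 (1.26%), and at 90% or above on one side with 10% or below on the other for 108 (2.82%). A half-methylated CpG between near fully methylated CpGs had the lowest of these counts. Of all covered neighbours within 75 bp of half-methylated CpGs, 11.3% were at 90% or above. Those at 10% or below made up 25.8% and those at 40% to 60% made up 14.9%. How common each arrangement would be at these shares was not computed, so the counts are a description.

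The 3 deepest sites of each kind give the counts behind them. Between highly methylated CpGs, position 703623 of SCAFFOLD21 had 34 methylated reads of 69, with 17 of 18 at 50 bp on one side and 81 of 88 at 57 bp on the other. Position 3768849 of SCAFFOLD6 had 32 of 69, with 38 of 41 at 57 bp and 71 of 77 at 48 bp. Position 465091 of SCAFFOLD16 had 36 of 66, with 51 of 55 at 55 bp and 65 of 72 at 5 bp. At the last of these the level changed from 54.5% to 90.3% over 5 bp, a distance most reads over the site span.

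Between non-methylated CpGs, position 369945 of SCAFFOLD139 had 80 methylated reads of 159, with 6 of 150 at 6 bp and 0 of 227 at 52 bp. Position 3251412 of SCAFFOLD4 had 88 of 159, with 6.25% at 64 bp (1 of 16) and 1.86% at 29 bp. Position 308592 of SCAFFOLD170 had 72 of 143, with 0 of 136 at 71 bp and 0 of 69 at 53 bp. These single sites stood at 50.3%, 55.3% and 50.3% between CpGs with few or no methylated reads.

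The closest neighbours of all are CpGs that follow each other directly, 2 bp apart, which was the case for 166 half-methylated CpGs (1.82%, against 2.01% at 90% or above). The level of the partner differed by a median of 8.92 points and by more than 20 points in 35 of 166 cases (21.1%), at a median depth ratio of 1. Its root mean square difference was 16.1 points, where binomial sampling of both sites with independent reads would give 10.1. For CpGs at 90% or above the same values were 7.91 and 5.59 points. Even directly adjacent CpGs thus differed by more than the counting error of 2 separate samples of reads.

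The spread of neighbours was far wider than binomial sampling gives, around half-methylated CpGs and around other mCpGs alike. For the 101653 different covered CpGs at 76 to 500 bp from half-methylated CpGs, the levels had an SD of 37.3 points where sampling at their depths around 1 common level would give 9.52. The ratio of observed to binomial variance was 28.6. It was 29.8 around mCpGs below 40%, 28.2 around those above 60% and below 90%, and 27.8 around those at 90% or above. Among the mCpG neighbours of half-methylated CpGs alone the SD was 25.8 points against 9.35 and the ratio 15.1. The spread was thus not only that between mCpGs and non-methylated CpGs. In the other classes, this ratio among mCpG neighbours was 16.8, 14.6 and 14.7 in the same order. Close to half-methylated CpGs the spread was smaller, with a ratio of 6.32 at 2 bp (SD 16.4 against 7.39) and 17.6 at 3 to 10 bp. On the 20 scaffolds the ratio at 76 to 500 bp ran from 26 to 31.2, and it was lower than at 90% or above in 4 of 20. The SD itself followed the level of the site, with 34.9 points around mCpGs below 40%, 37.3 around half-methylated CpGs and 39.4 around those at 90% or above, and the half-methylated value lay between the other two in 20 of 20 scaffolds. The binomial SDs of these classes moved the same way, at 8.82, 9.52 and 10.1 points.

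Clusters with half-methylated CpGs had a larger variance ratio within themselves, with these sites left out. In the 3357 such clusters with enough other sites, the variance ratio had a median of 14.6 (quartiles 8.65 and 21.2) and passed 2 in 97.6%. In the 1860 clusters without a half-methylated CpG the median was 10.9 (quartiles 5.42 and 17.9), and 94.3% passed 2. The SDs were closer, at medians of 27.5 and 26.4 points with binomial values of 9.11 and 9.53, so depth enters the ratio as well. Since the half-methylated sites were removed from the first set only, the 2 sets are not treated alike, and these values are a description.

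Local CpG density was low and hardly differed from that of other mCpGs. Half-methylated CpGs had a median of 19 CpG sites in the 1000 bp around them (quartiles 14 and 27), against 22 for mCpGs below 40%, 18 above 60% and below 90% and 18 at 90% or above. CpGs at 10% or below with the same depth had a median of 59 (quartiles 37 and 80). Half-methylated CpGs thus shared the CpG-poor setting of mCpGs in general. Their median density ran from 17 to 25 over the 20 scaffolds.

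The half-methylated share of mCpGs was nearly level across density, at 16.7% with 1 to 10 CpGs per 1000 bp (1044 half-methylated CpGs), 15.6% with 11 to 20 (3931), 16.3% with 21 to 30 (2484), 16.4% with 31 to 40 (1099) and 18.7% with 41 to 60 (549). With 61 or more there were 12, or 10.3% of the mCpGs there. Over all CpGs of 30 to 170 reads the share fell from 8.89% to 0.00126% over the same classes, as that of mCpGs did. What changed with density was the neighbourhood. The level of neighbours at 76 to 500 bp was 52.1% in the sparsest class, 30.8% with 21 to 30 and 21.4% with 41 to 60, but 32.1% around the 12 sites with 61 or more. The share inside clusters was 84.5% in the sparsest class, 75% with 21 to 30, 69.4% with 31 to 40 and 71.6% with 41 to 60.

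Within density classes the order of the level classes stayed. With 11 to 20 CpGs per 1000 bp the neighbours were at 37.2% around mCpGs below 40%, 43.9% around half-methylated CpGs and 54.2% around CpGs at 90% or above. With 31 to 40 they were at 18.3%, 22.4% and 35%. The order held in the 5 classes up to 60 CpGs and not with 61 or more, where the class at 90% or above had 3 sites.

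Most half-methylated CpGs did not follow each other. Counting only CpGs of 30 to 170 reads, 6572 (72.1%) stood alone and 2547 were in runs of 2 or more, with 974 runs of 2, 144 of 3, 31 of 4, 6 of 5, 1 of 6 and 1 of 7. Half-methylated CpGs were only 16.2% of the mCpGs of this depth. How many would stand alone at that share was not computed, so these counts are a description. The longest run was on SCAFFOLD724, positions 26552 to 27024 (473 bp), with 19 methylated reads of 41, 23 of 53, 21 of 43, 23 of 42, 19 of 40, 29 of 55 and 34 of 62. Together these gave 168 of 336 reads (50.0%, 44.7% to 55.3%). CpGs of lower depth inside it had 19 of 24 and 11 of 11 reads methylated, and the run was in no cluster. The 8 covered CpGs in its flanks were all mCpGs, at 29.5% together.

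The next run, on SCAFFOLD1 from 8052886 to 8053642, had 6 half-methylated CpGs with 143 of 286 reads (50.0%). It lay in a cluster of 20 covered CpGs, 19 of them mCpGs, at 60%. The third, on SCAFFOLD418 from 80678 to 81490, had 5 with 166 of 292 reads (56.8%) and opened a cluster at 56.0%, while 4 of the 10 covered CpGs in its flanks were mCpGs, at 8.20% together. Within the runs the levels varied less than binomial sampling gives (ratios of 0.369, 0.517 and 0.120), which follows from the band that chose them. Each run had an edge at which the level changed, from 54.8% to 18.3% within 45 bp on SCAFFOLD724, from 48.9% to 8.33% (2 of 24 reads) within 57 bp on SCAFFOLD1 and from 0.625% (1 of 160 reads) to 58.9% within 69 bp on SCAFFOLD418.

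**Figure D5:**
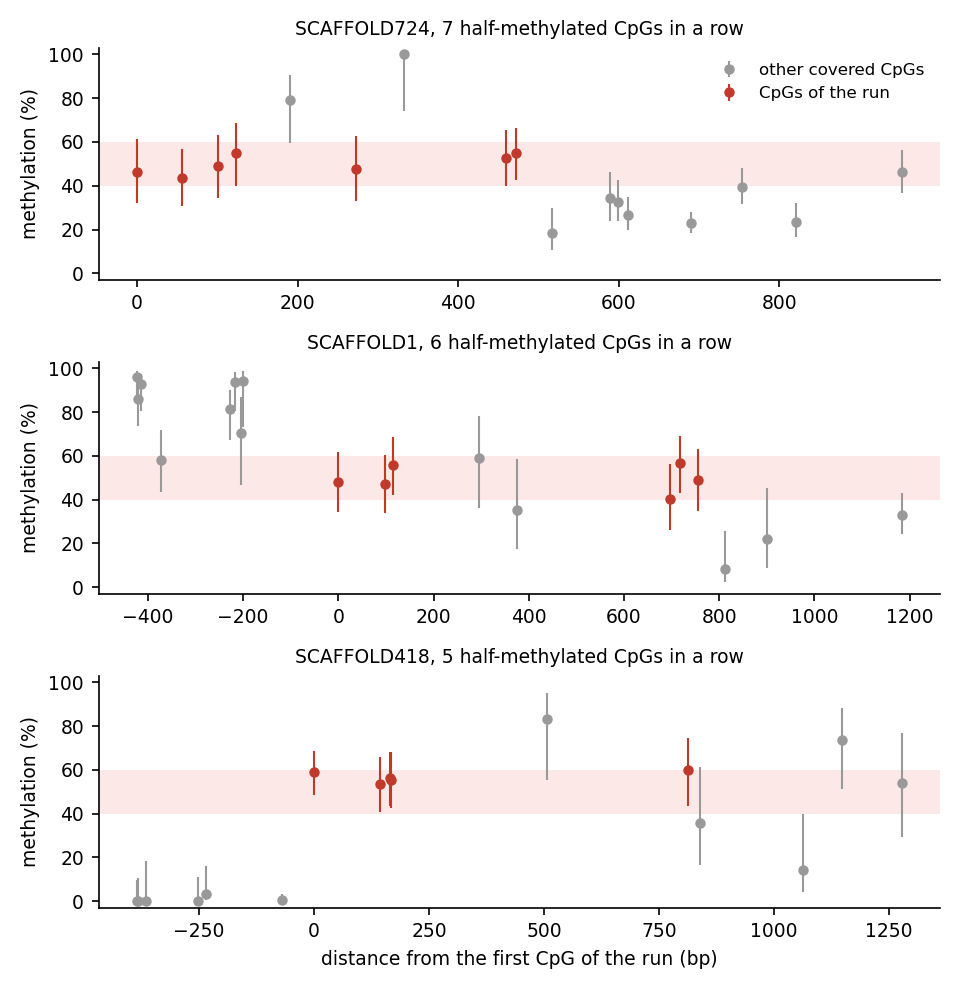
Methylation percentage (vertical axis, %, with 95% Wilson intervals) of the covered CpGs in and around the 3 longest runs of half-methylated CpGs, against distance from the first CpG of the run (horizontal axis, bp). Red points are the CpGs of the run, grey points other covered CpGs, and the shaded band is 40% to 60%. The runs hold 7, 6 and 5 half-methylated CpGs, and grey points inside them have fewer than 30 reads.

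Gene annotation of the scaffolds was not used here, so positions were tied to genes only where a named region gives one. Of 10 named mCpG clusters outside the newer gene set, 8 held half-methylated CpGs. They were 21 of the 143 mCpGs of 30 to 170 reads there, or 14.7% (9.81% to 21.4%), an interval that includes the 16.2% of all mCpGs of that depth. The cluster mCpGCL5288 on SCAFFOLD595 (25954 to 30792, gene model NV18909) had 8 of 41, between 36 of 81 (44.4%) and 45 of 76 reads (59.2%). The cluster mCpGCL3314 on SCAFFOLD26 (1459319 to 1461389, NV23891) had 5 of 18, from 18 of 32 to 24 of 41 reads. The neighbouring clusters mCpGCL4603 and mCpGCL4605 on SCAFFOLD101, both at NV50511, had 0 of 4 and 0 of 26.

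Half-methylated CpGs also lay within 500 bp of 10 of 28 candidate sites of methylation outside CpGs. They were 20 of the 99 mCpGs of 30 to 170 reads there, or 20.2% (13.5% to 29.2%), which also includes 16.2%. Each candidate site named here is marked in its list as lying in a CpG context after all, where the reference has an error or near-identical copies of the sequence differ, so reads of such copies cannot be told apart from intermediate methylation around it. In the gene Nasvi2EG009629 on SCAFFOLD18, near 2 candidate sites in coding sequence, 6 had between 43 of 104 (41.3%) and 30 of 50 reads (60%), and 3 of them, at 2719355, 2719375 and 2719399, lay within 45 bp. They were 2 of the 9 mCpGs of 30 to 170 reads near one candidate site and 4 of the 6 near the other. In Nasvi2EG009539 on the same scaffold, also near 2 candidate sites in coding sequence, 4 had 48 of 111, 26 of 58, 42 of 96 and 54 of 124 reads. These were at 43.2% to 44.8%, a range narrower than the interval of any one of them. They were 3 of the 11 mCpGs of 30 to 170 reads near one candidate site and 1 of the 7 near the other. Most such mCpGs there were thus not half-methylated. Near a candidate site upstream of Nasvi2EG025270 on SCAFFOLD258, 2 of the 7 such mCpGs were half-methylated, with 23 of 43 and 21 of 38 reads. The annotation here is that of the candidate site, and whether the half-methylated CpG lies in the same feature was not read.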

How the data were processed

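The deposited table gives counts of unconverted (C) and converted (T) reads per CpG site, made by the authors as raw counts without normalization. The authors trimmed reads to 75 bp, aligned them with BWA (version not given in the sources used here) to C-to-T converted copies of the scaffolds with CpG Cs kept or converted, and kept unique alignments without indels. At most 4 mismatches per read were allowed, and a read with methylated and non-methylated CpGs together mismatches both kinds of copy. The effect of this on intermediate levels was not tested. CASAVA 1.7 is named in the submitters' processing notes. The scaffold release and the treatment of duplicates are not given in the sources used here, and the lanes could not be analysed apart.

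Half-methylated CpGs, clusters, neighbours and densities were computed from these counts with Python 3.11.15, NumPy 2.4.6, pandas 2.3.3 and SciPy 1.17.1. The functions were tested on simulated data. Covered CpGs had 10 reads or more, clusters needed at least 4 covered CpGs, and 95% Wilson intervals were used. The variance ratio is the observed variance of site counts about their pooled level over the binomial one. Named regions were the 3 longest runs, the 3 deepest sites of each stated arrangement, the 3 scaffolds of highest share, and sites in or near the named clusters and candidate sites. The members, lists and rules were chosen with earlier results of these data known. Alternatives were other depth limits, bands, mCpG definitions, cluster gaps, windows and neighbour coverages.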

Additional observations from a re-analysis of the deposited data

How the results depend on the processing

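The number of half-methylated CpGs depended on the limits, as their construction requires. It was 4016 with at least 50 reads, 4460 at 45% to 55% and 13717 at 35% to 65%, against 9119, and within 1.5 times of it with at least 20 reads and without an upper limit. The share inside clusters (78.2%) became 75.6% with mCpGs above 20%, 76% with mCpGs of 20 reads or more and 69.5% with gaps of at most 200 bp. The share with another mCpG within 75 bp (77.4%) became 74.2%, 74.9% and, with sites of at least 50 reads, 75%. The level of neighbours at 76 to 500 bp (34.7%) became 35% with neighbours of 30 reads or more, 34.3% with 5 or more, 34.2% as a mean of sites, 35.4% with sites of 50 reads or more and 34.7% at 45% to 55%. The difference between 160 to 180 bp and 76 to 100 bp (-5.98 points) became -5.21 with neighbours of 30 reads or more, -7.20 as a mean of sites, -4.04 with sites of 50 reads or more and -7.15 at 45% to 55%, and stayed negative throughout. The median density (19) became 23.5 per 1000 bp over 2000 bp. The variance ratio (28.6) became 34.3 with neighbours of 30 reads or more, 15.1 for mCpG neighbours, 29.2 with sites of 50 reads or more and 28.3 at 45% to 55%. The causes of these shifts were not tested. No paired analysis was possible because 1 pool was sequenced and no groups were compared. Depth limits single sites: at 30 reads the interval of a site at 50% is 33.2% to 66.8%.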

Other observations

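Above the upper depth limit of 170 reads, 26 of 110 mCpGs (23.6%, 16.7% to 32.4%) were at 40% to 60%, against 16.2% of the mCpGs of 30 to 170 reads and 21% (19.2% to 22.9%) of those of 100 to 170 reads. The interval of this share includes the latter value. The neighbours at 76 to 500 bp of half-methylated CpGs with 100 to 170 reads were at 39%, against 34.5% for those with 30 to 39 reads.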
